A study of Mus musculus with 6 samples.

Results

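The 10 genes Fos, Fosb, Jun, Junb, Jund, Egr1, Ier2, Zfp36, Atf3 and Nr4a1 are immediate early and AP-1 genes, taken by symbol from the 48377 genes of the deposited count table. Skin of db/db mice was profiled by stranded poly(A) RNA sequencing after 16 days of vemurafenib (PLX4032, labelled 1 uM) or of vehicle, named DMSO in the sample titles, with 3 libraries per group. Mice of both groups carry the db mutation of the leptin receptor, become obese and diabetic and heal skin wounds slowly, so no library comes from an animal with normal leptin signalling. The sources used here do not give age, sex or the number of animals behind a library, so the spread that the p-values rest on is that between libraries, and some of it may be technical.

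Immediate early genes are switched on within minutes of a growth factor, a wound or another stress, without new protein synthesis, through transcription factors such as SRF, its partners of the ELK family and CREB. Fos and Jun proteins pair through leucine zippers to form AP-1, which binds DNA and drives genes of proliferation, matrix breakdown and keratinocyte differentiation in skin. The RAF to ERK kinase cascade is one of the routes that switch these genes on. Vemurafenib blocks mutant BRAF and, in cultured cells with normal BRAF, is known to be able to raise ERK activity.

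The 10 genes held 168 counts over the 6 libraries, whose counted totals were 78434, 20796 and 38293 in vemurafenib 1, 2 and 3, against 22985, 14189 and 48798 in vehicle 1, 2 and 3. Of the 10, 8 had a count and 7 reached the 10 counts needed to enter the test. None of these 7 passed edgeR's quasi-likelihood test (Benjamini-Hochberg adjusted p under 0.05 over all genes), and 0 of them had an unadjusted p under 0.05, a level that 5.41% of all genes tested reached. Over all 4697 genes tested, 3 passed, or 0.0639%, all higher with vemurafenib. The direction of the calls depended on the method: limma-voom called 2 genes, both lower, and edgeR on library totals or DESeq2 size factors called 3 higher and 2 lower. The count with edgeR was 0 without vehicle 2 and 1 without vehicle 1 or without vehicle 3. DESeq2 and limma-voom also called 0 of the 7 members, with 0 at an unadjusted p under 0.05 in each. Junb was the member with the smallest p. It had a log2 fold change of 1.44 ± 0.78 (SE, adjusted p = 0.963), and every vemurafenib library lay above every vehicle library. At Jund and Jun more counts stood under the feature on the other strand. Gm11175, which lies opposite Jund, held 286 counts against 33 for Jund itself, and Junos held 69 against 38 for Jun. At Junb and Zfp36 the feature held fewer, with 8 against 28 and 12 against 30.

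Skin was the labelled tissue, and 11 of 12 epidermal and 12 of 12 dermal fibroblast markers had counts, Krt2 being the exception. The fibroblast counts were uneven, with 2950 under Col1a1 but 4 under Dcn and 3 under Lum. Of 10 adipocyte markers 7 had a count, and Adipoq, Lep and Cfd were at 0. Inner root sheath genes summed to 7857 CPM, counts scaled to a library total of 1000000, in vemurafenib 3 and to between 65.5 and 450.0 CPM in the other 5 libraries. Vehicle 2, the shallowest library, stood apart on the first principal component (30.3% of the variance), at 25.9 against -11.7 to 4.96 for the others. The list of 16 housekeeping genes held 192 counts in all, although these are abundant messages of most tissues. Actb, Tubb5 and Ywhaz led with 47, 37 and 19, while Gapdh held 6, Ubb 1 and Rpl13a 0. Whether the counts under any gene name, the 10 genes included, come from that gene's own strand was not tested. The summed level of the housekeeping genes was 922, 1213 and 1040 CPM with vemurafenib, against 654, 771 and 677 CPM with vehicle. These groups did not overlap, and 0 of the 7 housekeeping genes tested passed. Ywhaz had 18 counts with vemurafenib and 1 with vehicle, a log2 fold change of 3.32 ± 1.16 (SE, adjusted p = 0.445). Skeletal muscle markers, of which 7 of 10 had a count (Acta1, Myh1 and Myh4 being at 0) and 1 was tested without passing, summed to 200.4, 225 and 192 CPM with vemurafenib, against 436, 514 and 262 CPM with vehicle. The part of these lists in the values of the 10 genes was not tested.

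The Jun genes come first, since they held most of the members' counts. Jun encodes c-Jun, a strongly activating AP-1 subunit. On GRCm38 (mm10) it lies at chr4:95049034-95052222 on the minus strand as a single exon. Its promoter is shown because it carries a sequence that Jun and ATF proteins are known to bind. The printed stretch, chr4:95052240-95052287, reads in the direction of the gene, and the capitals mark a match to TGACNTCA.
Jun: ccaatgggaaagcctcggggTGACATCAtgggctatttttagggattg
Jun had 174, 89.9 and 164 CPM in vemurafenib 1, 2 and 3, against 131, 64.3 and 284 CPM in vehicle 1, 2 and 3. The groups overlapped, with the highest and the lowest value both among the vehicle libraries. The log2 fold change was -0.29 ± 0.62 (SE, adjusted p = 0.999), with a 95% interval of -1.51 to 0.92, and it was 0.51 without vehicle 3.

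Junb encodes a Jun protein that can restrain c-Jun and that keeps inflammation of the epidermis in check in mice. It lies at chr8:84974484-84978718 on the minus strand. Its promoter stretch, chr8:84978830-84978874, is shown because Junb was the member whose groups separated, and the capitals mark TGACG, the core of the site that CREB and ATF proteins bind.
Junb: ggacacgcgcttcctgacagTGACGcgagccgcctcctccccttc
Junb had 14, 2 and 7 counts in vemurafenib 1, 2 and 3, against 1, 1 and 3 counts in vehicle 1, 2 and 3. These correspond to 187, 89.9 and 192 CPM with vemurafenib, against 43.6, 64.3 and 65.5 CPM with vehicle. The lowest vemurafenib library stands above the highest vehicle library, although 2 counts and 3 counts lie behind those values. Junb averaged 156 ± 57.5 CPM with vemurafenib and 57.8 ± 12.3 CPM with vehicle (SD, n = 3 each). The 95% interval of its log2 fold change ran from -0.09 to 2.98. Leaving out a library moved the value between 1.28 and 1.62. Of all tested genes 10.6% had groups that did not overlap, and among the 7 tested members Junb was the 1 that did so.

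Jund encodes the Jun protein that is present in many resting cells and responds least to stimulation. It lies at chr8:70698949-70700616 on the plus strand as a single exon. Jund had 107, 44.9 and 274 CPM in vemurafenib 1, 2 and 3, against 174, 257 and 131 CPM in vehicle 1, 2 and 3. The vemurafenib libraries held both the lowest and the highest value. The log2 fold change was -0.25 ± 0.65 (SE, adjusted p = 0.999), with a 95% interval of -1.52 to 1.03. It was 0.04 without vemurafenib 1, 0.02 without vemurafenib 2 and -0.94 without vemurafenib 3.

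Fos encodes c-Fos, the best known inducible partner of the Jun proteins, and lies at chr12:85473890-85477273 on the plus strand. Its promoter stretch, chr12:85473804-85473848, is shown with the capitals at TGACG, a site through which cAMP and calcium signals are known to act on Fos.
Fos: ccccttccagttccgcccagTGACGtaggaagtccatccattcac
Fos had 3, 0 and 2 counts in vemurafenib 1, 2 and 3, against 1, 0 and 4 counts in vehicle 1, 2 and 3. Its log2 fold change was -0.58 ± 1.07 (SE, adjusted p = 0.999), with a 95% interval of -2.68 to 1.53. The interval includes large differences in either direction, on 10 counts in all. Fosb (chr7:19302696-19310051, minus strand), a Fos relative with a similar course of induction, had 0 counts in all 6 libraries. By counting error, a count of 0 allows up to 38.2, 144 and 78.3 CPM in vemurafenib 1, 2 and 3, and up to 131, 211 and 61.5 CPM in vehicle 1, 2 and 3. Atf3 (chr1:191170296-191218039, minus strand), a stress-induced member of the ATF family that pairs with Jun proteins, had 1 count in vemurafenib 1 and 1 in vehicle 1. An exact permutation test on its CPM, two-sided, gave p = 1, and the smallest p that 3 against 3 libraries allow is 0.1.

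**Figure D1:**
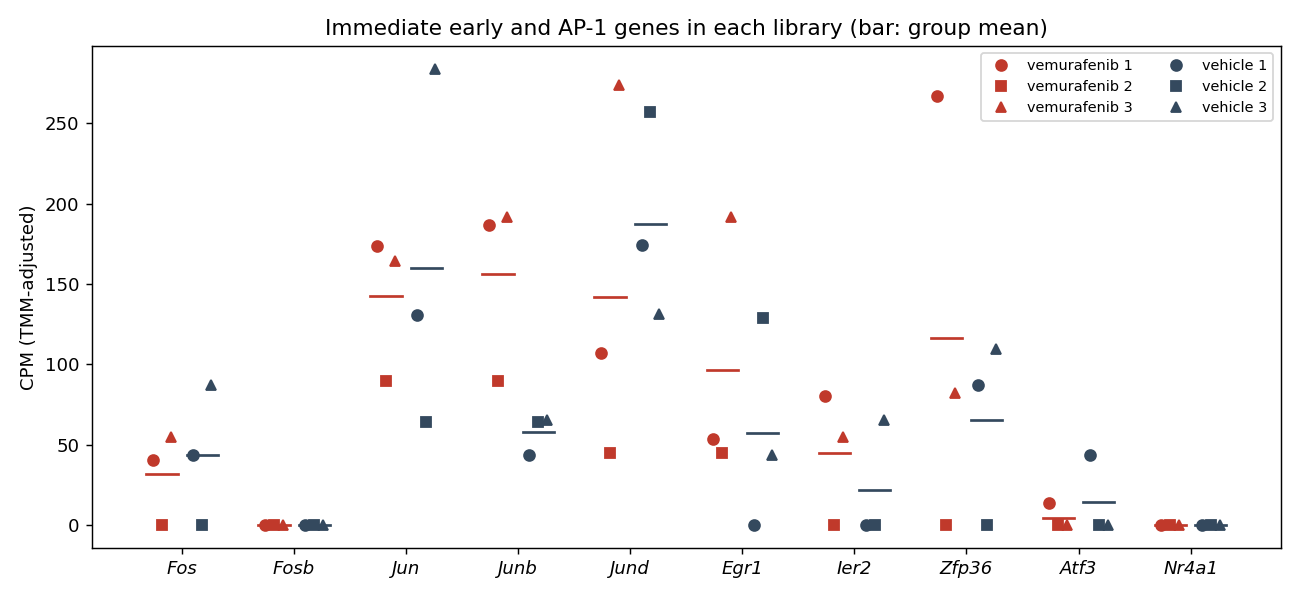
Level of each of the 10 genes in CPM (vertical axis), with 1 point per library, vemurafenib in red and vehicle in dark blue, and a bar at each group mean. The groups are apart for Junb, with 89.9 to 192 CPM with vemurafenib and 43.6 to 65.5 CPM with vehicle, and Fosb and Nr4a1 are at 0 throughout.

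Among the members that are not AP-1 subunits, Egr1 encodes a zinc finger transcription factor that is a direct target of ERK signalling through SRF and ELK proteins. It lies at chr18:34859823-34864984 on the plus strand. Egr1 had 53.4, 44.9 and 192 CPM in vemurafenib 1, 2 and 3, against 0, 129 and 43.7 CPM in vehicle 1, 2 and 3. The groups overlapped, and 7 of its 16 counts came from vemurafenib 3. The log2 fold change was 0.91 ± 0.97 (SE, adjusted p = 0.999), with a 95% interval of -0.99 to 2.82, and it was 0.43 without vehicle 1 and 1.61 without vehicle 2.

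Ier2, a small nuclear protein induced early by growth factors (chr8:84661331-84662852, minus strand), had 6, 0 and 2 counts in vemurafenib 1, 2 and 3, against 0, 0 and 3 counts in vehicle 1, 2 and 3. It was therefore detected in 2 vemurafenib libraries and 1 vehicle library, all 3 of them the deepest ones. Its log2 fold change was 0.68 ± 1.11 (SE, adjusted p = 0.999), and it was 0.25 without vehicle 1. Nr4a1 (chr15:101254269-101274795, plus strand), the orphan nuclear receptor Nur77, had 0 counts in all 6 libraries, with the same limits as Fosb.

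Zfp36 encodes tristetraprolin, which binds AU-rich elements of cytokine messages and speeds their decay, and so is an immediate early gene that limits inflammation. It lies at chr7:28376784-28380253 on the minus strand. Of the 8 member windows, that of Zfp36 was the only 1 with a CArG box in the 250 bases searched. Sites further upstream were not looked for. The promoter stretch of Zfp36, chr7:28379257-28379306, is shown for this box, the sequence that SRF binds, here in capitals.
Zfp36: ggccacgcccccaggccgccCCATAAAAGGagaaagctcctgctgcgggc
Zfp36 had 20, 0 and 3 counts in vemurafenib 1, 2 and 3, against 2, 0 and 5 counts in vehicle 1, 2 and 3. The value of 267 CPM in vemurafenib 1 stands above all others, which lie between 0 and 109 CPM. The log2 fold change was 0.87 ± 0.74 (SE, adjusted p = 0.999), and without vemurafenib 1 it was -0.65.

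**Figure D2:**
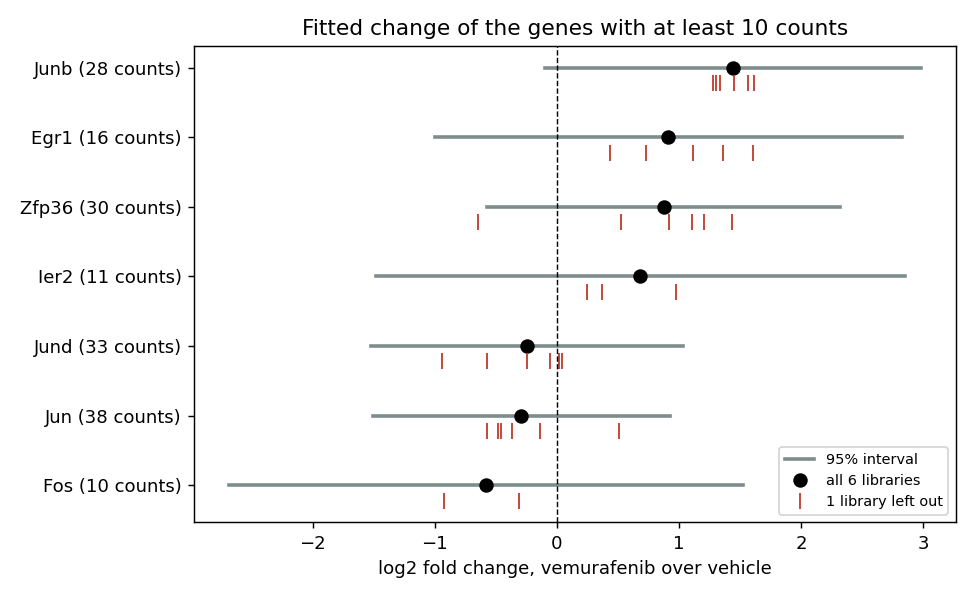
Log2 fold change of vemurafenib over vehicle (horizontal axis) for the 7 genes with at least 10 counts. Black points are the fit on all 6 libraries, grey lines their 95% intervals, and red ticks the fits with 1 library left out where the gene still had 10 counts. Every interval includes 0, and the ticks of Jun, Jund and Zfp36 lie on both sides of it.

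The promoter stretches come from RefSeq windows on GRCm38.p6, with a window for 8 of the 10 genes and none used here for Ier2 and Egr1. The 250 bases before the start were searched on both strands, and the motifs were chosen after the sequences were seen. TGACG was found in 5 of the 8 windows, those of Fos, Fosb, Junb, Atf3 and Nr4a1, and in 17.7% of all 32817 windows. TGACNTCA, which includes TGACG where N is G, was found in the window of Jun and in 7.49% of all windows. The AP-1 site TGANTCA was found in 0 of the 8 windows and in 6.75% of all. The CArG box was found in 1.47% of all windows. A match is a run of letters, and binding was not measured. The RefSeq starts of Jund and Junb lie upstream of the GENCODE gene starts used for their positions, and those of Fosb, Zfp36, Atf3 and Nr4a1 lie inside the GENCODE gene.

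Per length of exon, the members differed widely in level. Over all libraries Jund held 19.8 counts per kb of exon, Junb 12.2, Jun 11.9, Zfp36 8.65, Ier2 7.23, Fos 4.25, Egr1 3.57 and Atf3 0.929, while Fosb and Nr4a1 held 0. The median protein-coding gene held 0.231 counts per kb, and 43.9% of the 21634 coding genes at a single locus held none. Jund exceeded 98.9% of these genes, Junb and Jun 97.7% each, Zfp36 96.4%, Ier2 95.5%, Fos 91.8%, Egr1 90.04% and Atf3 70.8%. Few counts suffice for such a rank, since Fos held 10 in all and Atf3 held 2. Junb had 67.9 CPM per kb with vemurafenib and 25.1 CPM per kb with vehicle, whereas Jund had 85.0 CPM per kb with vemurafenib and 112 CPM per kb with vehicle. The order of the Jun genes on this scale was not the same in each library. Jund had 64.1, 26.9 and 164 CPM per kb in vemurafenib 1, 2 and 3, against 81.3, 39.1 and 83.3 CPM per kb for Junb in the same libraries. In vehicle 3 Jun had 89.1 CPM per kb and Jund 78.6, whereas in vehicle 1 and 2 Jund had more than Jun. Junb had more than Jun in each vemurafenib library, and the ranges of the 3 Jun genes with vemurafenib overlapped.

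Genes on the opposite strand were counted as well, since the libraries were stranded and the strand setting of the counting was not given. In the GENCODE M21 annotation 5 of the 10 genes have such a feature over their body, and for 4 of them exons overlap. Gm11175 (chr8:70699162-70700080, minus strand) is annotated as antisense, and all 877 bp of its exons lie within the exon of Jund, of which they cover 52.6%. The sequence of each of its transcripts is the reverse complement of Jund sequence. A stretch of the Jund coding sequence, chr8:70699660-70699719 on the plus strand, is shown with the start of the shorter Gm11175 transcript, chr8:70699660-70699689 on the minus strand. Capitals mark the bases shared with that transcript. The longer Gm11175 transcript, 1 exon of 543 bp, covers the lower-case bases as well.
Jund: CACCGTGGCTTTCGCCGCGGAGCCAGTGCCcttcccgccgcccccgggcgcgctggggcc
Gm11175: GGCACTGGCTCCGCGGCGAAAGCCACGGTG
Gm11175 had 86, 31 and 59 counts in vemurafenib 1, 2 and 3, against 29, 14 and 67 counts in vehicle 1, 2 and 3. It held more counts than Jund in each library. Its share of the counts of both was 90.3% with vemurafenib (95% exact binomial interval 85.2 to 94.0) and 88.7% with vehicle (81.8 to 93.7). These intervals pool the counts of a group's libraries and leave out the spread between libraries. Gm11175 had 1386 ± 233 CPM with vemurafenib and 1209 ± 286 CPM with vehicle (SD, n = 3 each), a log2 fold change of 0.17 ± 0.44 (SE, adjusted p = 0.999) with overlapping groups. Per length, Gm11175 held 326 counts per kb of exon, against 19.8 for Jund.

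Junos, an antisense gene that starts inside Jun and runs away from it (chr4:95051534-95167318, plus strand), shares 232 bp of exon with Jun. Junos had 35, 6 and 8 counts in vemurafenib 1, 2 and 3, against 2, 2 and 16 counts in vehicle 1, 2 and 3. It exceeded Jun in 5 of the 6 libraries, vehicle 1 being the exception, with 69 counts against 38 in all. Its log2 fold change was 0.63 ± 0.54 (SE, adjusted p = 0.999), and it was 0.14 without vemurafenib 1 and 1.61 without vehicle 3. Pooled over the libraries of a group, Junos held 70.0% of the counts of both genes with vemurafenib (57.9 to 80.4) and 54.1% with vehicle (36.9 to 70.5). The intervals leave out the spread between libraries and do not compare the groups. Shares by library were 72.9, 75 and 57.1% in vemurafenib 1, 2 and 3, against 40, 66.7 and 55.2% in vehicle 1, 2 and 3. The groups overlapped.

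Gm44710 (chr7:28378980-28392514, plus strand) shares 125 bp of exon with Zfp36 and had 6, 1 and 2 counts in vemurafenib 1, 2 and 3, against 1, 0 and 2 counts in vehicle 1, 2 and 3. Prdx2, a peroxiredoxin gene whose end overlaps that of Junb by 173 bp of exon, had 6, 0 and 2 counts in vemurafenib 1, 2 and 3, against 0 counts in each vehicle library. Gm24748, inside an intron of Atf3, had 0 counts. Where exons overlap, only the strand of a read separates Jun, Junb, Jund and Zfp36 from these partners. Which strand the counting credited was not given, and the counts under these names are uncertain for that reason. The unstated strand setting bears equally on the other members. Fos, Fosb, Egr1, Ier2 and Nr4a1 have no annotated gene on the opposite strand over their body.

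**Figure D3:**
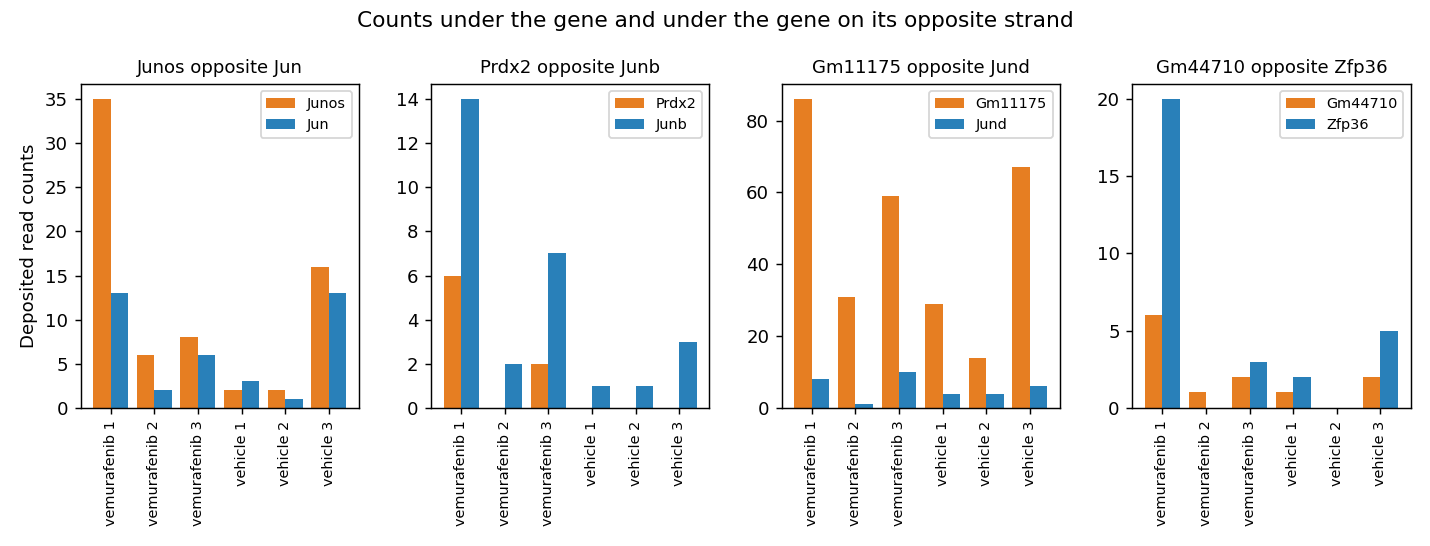
Deposited read counts (vertical axes, each with its own scale) in the 6 libraries for 4 of the genes, in blue, and for the gene on the opposite strand, in orange. Gm11175 exceeds Jund in each library and Junos exceeds Jun in all but vehicle 1, while Prdx2 and Gm44710 hold 8 and 12 counts in all.

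Summed over the 10 genes, the level was 922, 270 and 1013 CPM in vemurafenib 1, 2 and 3, against 523, 514 and 786 CPM in vehicle 1, 2 and 3. The lowest and the 2 highest sums all belong to vemurafenib libraries, and the groups overlapped. The sum averaged 735 ± 405 CPM with vemurafenib and 608 ± 155 CPM with vehicle (SD, n = 3 each), a log2 ratio of 0.27. It was -0.03 without vemurafenib 3, 0.67 without vemurafenib 2, 0.50 without vehicle 3 and 0.17 without vehicle 2. As shares of all counts, the 10 genes took 0.088%, 0.0289% and 0.0966% in vemurafenib 1, 2 and 3, against 0.0522%, 0.0564% and 0.0738% in vehicle 1, 2 and 3. For vemurafenib 2 the 95% exact binomial interval was 0.0106% to 0.0628%, on 6 counts, and for vehicle 2 it was 0.0243% to 0.111%, on 8 counts. Intervals and limits cover counting error only.

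Depth moved with this sum. The 3 deepest libraries, vemurafenib 1, vemurafenib 3 and vehicle 3, had the 3 highest sums, between 786 and 1013 CPM. The 3 shallowest had between 270 and 523 CPM. Within the 3 deepest the vemurafenib libraries had 922 and 1013 CPM, against 786 CPM for vehicle 3, and within the 3 shallowest vemurafenib 2 had 270 CPM, against 523 and 514 CPM for vehicle 1 and 2. The part of depth in the sum was not tested.

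**Figure D4:**
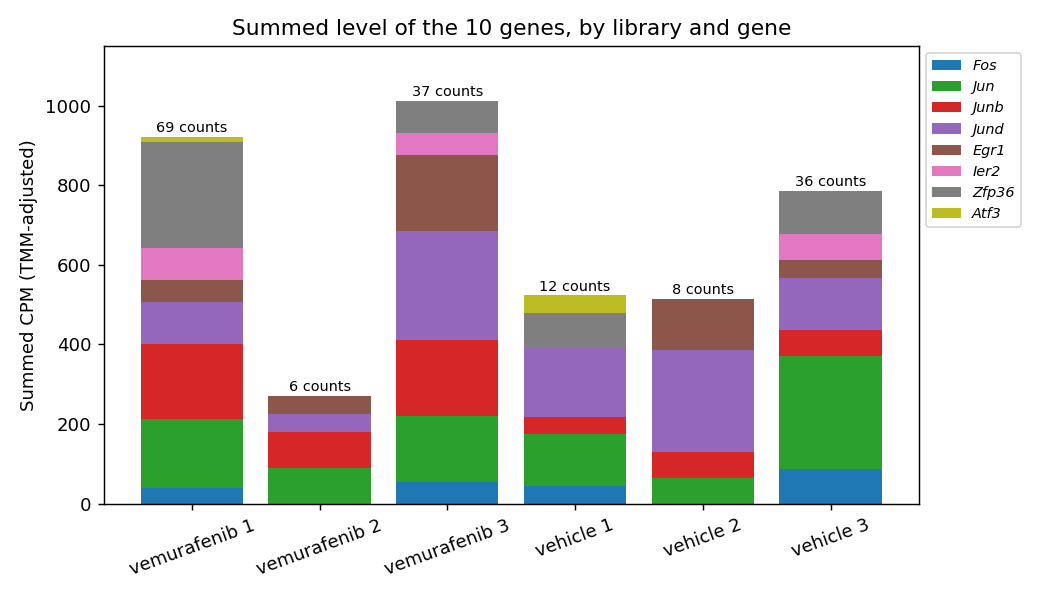
Summed CPM of the 10 genes (vertical axis) in each library, stacked by gene, with the number of counts behind each bar. Vemurafenib 1 and 3 reach 922 and 1013 CPM, vemurafenib 2 stands lowest at 270 CPM on 6 counts, and the vehicle libraries lie between 514 and 786 CPM.

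The AP-1 subunits and the other members were also summed apart. Fos, Fosb, Jun, Junb, Jund and Atf3 summed to 477 ± 233 CPM with vemurafenib and 463 ± 94.2 CPM with vehicle (SD, n = 3 each), a log2 ratio of 0.04. Egr1, Ier2, Zfp36 and Nr4a1 summed to 258 ± 188 CPM with vemurafenib and 145 ± 67.1 CPM with vehicle, a log2 ratio of 0.83. Of the 43 vemurafenib counts behind it, 20 were Zfp36 in vemurafenib 1. The lowest of these sums was that of vemurafenib 2, at 44.9 CPM. The groups overlapped for both sums, and the difference between the ratios was not tested. With the opposite-strand genes added, an alternative chosen after seeing the data, the 10 loci summed to 2544 ± 507 CPM with vemurafenib and 2035 ± 559 CPM with vehicle, a log2 ratio of 0.32. Of the 7 tested members 4 had a log2 fold change above 0, against 55.6% of all genes tested. The median of the 7 was 0.68, against 0.09 for all genes tested. That median is the value of Ier2, which rests on 11 counts and has an SE of 1.11.

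Of 37 other immediate early genes, 35 had a count, 10 were tested and 0 passed. Their summed level was 2044, 1213 and 1944 CPM in vemurafenib 1, 2 and 3, against 1526, 900.1 and 1289 CPM in vehicle 1, 2 and 3, a log2 ratio of 0.49 with overlapping groups. Klf4, a transcription factor needed for the skin barrier, had 200.4, 225 and 465 CPM in vemurafenib 1, 2 and 3, against 87.2, 64.3 and 153 CPM in vehicle 1, 2 and 3. These groups did not overlap, as was so for 10.6% of all genes tested, and the vehicle values rest on 2, 1 and 7 counts. The log2 fold change of Klf4 was 1.33 ± 0.63 (SE, adjusted p = 0.866). Mcl1, a survival factor of the BCL2 family, had 0.41 ± 0.61 on the same scale, and Cebpb, a bZIP factor of keratinocytes and myeloid cells, had 0.17 ± 0.63.

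Of 19 other bZIP genes, all had a count, 6 were tested and 0 passed. Fosl2, which encodes the Fos relative Fra-2, held the most counts of this list, 72 against 10 for Fos. It had 307, 449 and 356 CPM in vemurafenib 1, 2 and 3, against 218, 129 and 415 CPM in vehicle 1, 2 and 3, with overlapping groups and a log2 fold change of 0.34 ± 0.52 (SE, adjusted p = 0.999). Nfe2l1, a bZIP factor that controls proteasome genes, had 214, 270 and 383 CPM in vemurafenib 1, 2 and 3, against 131, 193 and 109 CPM in vehicle 1, 2 and 3. Its groups did not overlap, again as for 10.6% of all genes tested, with 3, 3 and 5 counts behind the vehicle values. Its log2 fold change was 1.05 ± 0.62 (SE, adjusted p = 0.985). Maf had a log2 fold change of -0.42 ± 0.53.

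Upstream of the members, the list of SRF, ELK and coactivator genes had 4 tested genes and 0 that passed. Elk3, a partner of SRF, had 214, 135 and 137 CPM in vemurafenib 1, 2 and 3, against 43.6, 129 and 43.7 CPM in vehicle 1, 2 and 3, a log2 fold change of 1.44 ± 0.77 (SE, adjusted p = 0.963). Its exons share 316 bp with a gene on the opposite strand. Srf itself had 0.71 ± 0.91, and Mkl1, an actin-regulated coactivator of SRF, had -1.01 ± 0.93. Of the 21 upstream kinase and RAS genes 18 had a count and 1 was tested, Rps6ka4, a kinase activated by ERK and p38, with 0.95 ± 1.08. Hras and Mapk3 had 9 and 7 counts.

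Downstream, the ERK feedback genes had 361, 315 and 383 CPM in vemurafenib 1, 2 and 3, against 349, 514 and 437 CPM in vehicle 1, 2 and 3, a log2 ratio of -0.30 with overlapping groups. Of the 16, 3 were tested and 0 passed. Ccnd1, Dusp7 and Errfi1 had log2 fold changes of -0.28 ± 0.67, -1.31 ± 1.04 and -0.47 ± 1.05. The AP-1 target genes of skin had 1336, 944 and 1725 CPM in vemurafenib 1, 2 and 3, against 1002, 1221 and 1245 CPM in vehicle 1, 2 and 3. Of the 22, 8 were tested and 0 passed. Krt6a and Krt16, keratins of the wound edge, had 1.40 ± 0.77 and 0.92 ± 0.64, and Mmp14, a membrane-bound collagenase, had -0.50 ± 0.49. Reads shared with related keratins are possible for both, and Krt6a, Ccnd1, Maf and Cebpb have exons opposite those of another gene, so their counts are uncertain. Transcripts known to be destabilised by tristetraprolin held 14 counts in all, led by Ccl3, Ier3 and Il1b with 5, 4 and 3, too few for a comparison. Heat shock genes held 37 counts, led by Hspb1, Dnajb1 and Hspa8, at 132 ± 76.3 CPM with vemurafenib and 217 ± 74.1 CPM with vehicle.

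**Figure D5:**
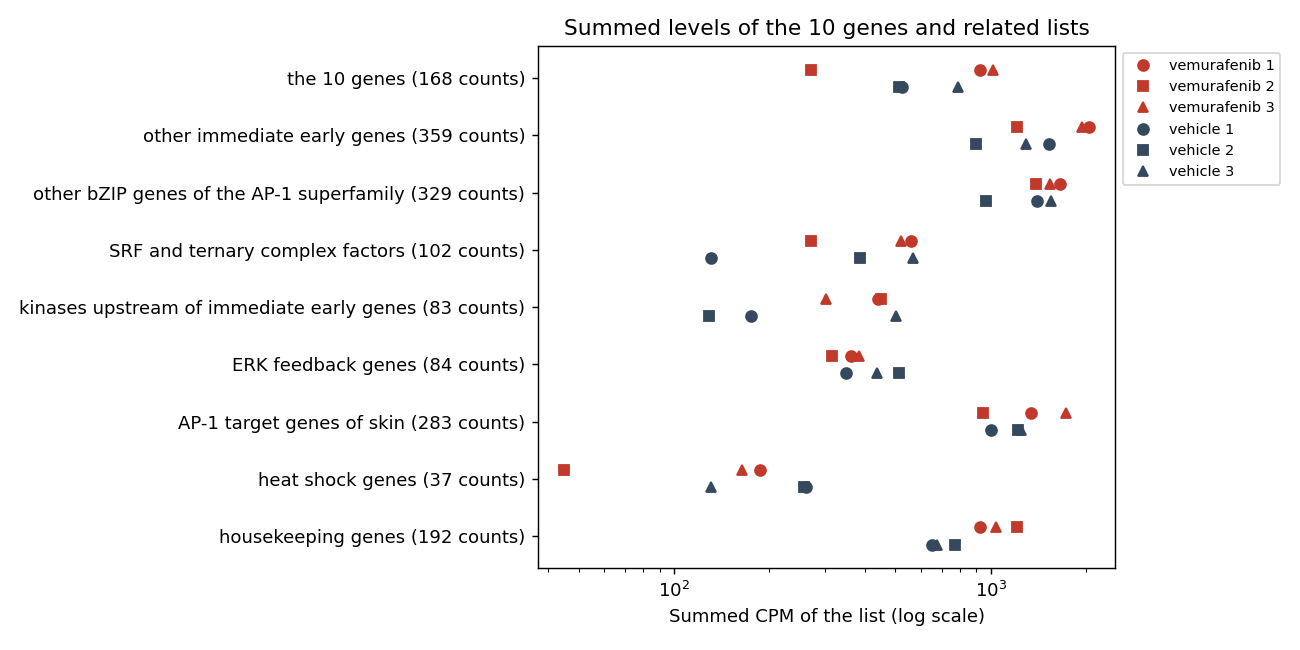
Summed CPM (horizontal axis, log scale) of the 10 genes and of 8 related lists, with 1 point per library, vemurafenib in red above vehicle in dark blue. Among these lists the groups are apart for the housekeeping genes, at 922 to 1213 CPM with vemurafenib and 654 to 771 CPM with vehicle.

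Of 1531 other genes with at least 30 counts, the 3 whose log2 CPM followed the log2 sum of the 10 genes most closely over the 6 libraries were Mtif3, Micall1 and Ppp1r12c, with Pearson r of 0.97, 0.97 and 0.95. The libraries share their depth and scaling in these values, and 6 libraries cannot tell 1 such gene from another. Ppp1r12c had 681, 315 and 712 CPM in vemurafenib 1, 2 and 3, against 436, 514 and 765 CPM in vehicle 1, 2 and 3, with vemurafenib 2 again the lowest.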

How the data were processed

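Poly(A) RNA of skin was made into stranded single-end libraries with a KAPA kit, per the labels' protocols. The values the authors deposited are raw read counts per gene symbol, in whole numbers and in 1 table. HISAT2, HTSeq and mm10 are named in the submitters' processing notes, and versions, annotation and strand setting were not given in the sources used here. Of the 7 columns, 1 matches no sample of the series and was not used.

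The members and lists were chosen with earlier results of these data known, as was the filter. Genes with at least 10 counts over the 6 libraries entered edgeR 4.0.16 (R 4.3.3), with TMM scaling on the totals of all genes, robust quasi-likelihood dispersion and group as the only term. The common biological coefficient of variation was 0.342. Standard errors were taken as the size of the log2 fold change divided by the root of the F statistic. Each CPM is a count over the TMM-adjusted total times 1000000, and the limit of a count of 0 is 3 counts over the unadjusted total. Sums of lists are described without a test. The log2 ratio of a sum compares group means of CPM. DESeq2 1.42.0 and limma-voom (limma 3.58.1) were alternatives, and the test was checked on simulated counts. There it called 2 of 430 genes changed 2-fold (0.47%) and 97 of 395 changed 4-fold (24.6%). A gene that did not pass may therefore still differ between the groups.

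Named were all 10 members, the genes on their opposite strand, the 3 most counted genes of each related list and the 3 genes most like the members' sum. Of the cell type marker lists, the sums of the epidermal genes (4528, 4539 and 6816 CPM with vemurafenib, against 3095, 4950 and 2949 CPM with vehicle) and the dermal fibroblast genes (37857, 41660 and 20832 CPM, against 34825, 44681 and 74539 CPM) overlapped between the groups. Positions come from GENCODE M21, in which 99.2% of the symbols were found. Promoter windows come from RefSeq on GRCm38.p6. Figures and sums used Python 3.11.15, pandas 2.3.3, scipy 1.17.1 and matplotlib 3.10.9.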

Additional observations from a re-analysis of the deposited data

How the results depend on the processing

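No member passed under any alternative, and with filterByExpr none of the 10 was tested. The count of 3 genes called, all higher, was 0 with filterByExpr, 5 with DESeq2 size factors (3 higher, 2 lower), 5 with upper quartile scaling (4 higher, 1 lower), 5 with library totals only (3 higher, 2 lower), 2 with limma-voom (both lower) and 0 with DESeq2. It ran from 0 to 4 when 1 library was left out, with 2 higher and 2 lower without vemurafenib 2. With the replicate number as a block it was 2, both higher. As a difference of mean log2 values, the members' sum had a log2 ratio of 0.08, with or without that block. Deviations from the group mean had r of 0.09, -0.10 and -0.22 between same-numbered libraries over 1534 genes. Between differently numbered libraries r ran from -0.15 to 0.24. At this depth such values cannot tell whether same-numbered libraries share an animal or a batch. The sign turned for Jun without vehicle 3 (0.51; range -0.57 to 0.51), for Jund without vemurafenib 1 and 2 (0.041 and 0.02; range -0.94 to 0.041), for Zfp36 without vemurafenib 1 (-0.65; range -0.65 to 1.44) and for Gm11175 without vehicle 2 (-0.0087; range -0.0087 to 0.30). The cause was not tested. The log2 ratio of the members' sum ran from -0.03 to 0.67 when 1 library was left out, and from 0.07 without Junb to 0.50 without Jund when 1 member was. Without a filter the median log2 fold change of all genes was 0.42, against 0.09, and with at least 1 CPM in 3 libraries it was 0.22. Depth limits every value: no member exceeded 20 counts in a library.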
